A study of Apis mellifera with 6 samples.

Results

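The effect of brood on the hypopharyngeal gland was read from 4 of the 6 RNA libraries of the series, 2 from the Brood group and 2 from the Pollen group. These libraries were chosen by their labels and not by any measured value. The animals were worker honeybees (Apis mellifera). Colonies of both groups were given honey together with rape pollen in abundance. In the Brood group the queen laid freely, whereas in the Pollen group the queen was caged so that the amount of brood shrank. The Honey group, with 2 libraries, had honey alone and caged queens, and it is used only to estimate the spread and to give levels beside those of the 4 libraries. Each group had 2 colonies, although the labels do not tie a library to a colony, and the sources used here do not give the number of glands behind a library. Bee age is 9 days throughout in the series text. The labels of single libraries instead run from 9 and 10 days (Pollen) over 11 and 12 (Honey) to 13 and 14 (Brood), in which case brood and age cannot be told apart by group means.

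The hypopharyngeal gland is a paired gland in the head of worker bees. In nurse bees it secretes protein-rich food for larvae and the queen, and it is known to shrink as workers turn to foraging. Protein from pollen and signals from the brood are both known to affect its size and secretion. The gland makes large amounts of a few secreted proteins, so a small set of transcripts can take up much of its RNA.

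Where a pair of values is given for a group, replicate 1 comes first. The Brood libraries held 3459632 and 3525248 counted fragments and the Pollen libraries 4153354 and 3546705. Each file listed 10704 gene models, of which 6943 passed the filter on low counts and were tested. The files pair no identifier with a gene name, and none of the identifiers matched the reference table (0 matches among 12398 genes), so models are described by linkage group, position and length. For the same reason the tissue could not be checked against marker genes. Coordinates are printed as the files give them, the linkage group is numbered by the order of the chromosome identifiers, and the sources used here do not name the genome build. Because these are bulk samples, fewer cells of a type and less RNA per cell cannot be told apart.

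With a laying queen, short gene models were higher and long models lower. The median log2 change (Brood minus Pollen) was 1.12 in the shortest decile of length (171 to 699 bases) and -1.58 in the longest (5200 to 59940 bases), and it fell in each decile between them. In the shortest decile 85.9% of models had a change above 0, and in the longest 6.33%. The share of all fragments that fell on the longest decile was 10.4% and 13.0% in Pollen 1 and 2 and 3.27% and 3.32% in Brood 1 and 2. The shortest decile held 24.2% and 21.6% in Pollen 1 and 2 and 33.9% and 31.5% in Brood 1 and 2, and most of this came from a single model of 237 bases on linkage group 6. Neither share overlapped between the groups, but for the shortest decile this rested on that 237-base model. Without it the share of the shortest decile did overlap, with Pollen 1 above Brood 2.

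The relation with length was present in every pairing of a Brood with a Pollen library and small within groups. The median of the shortest decile minus that of the longest, on the scale of log2(CPM + 1), was 2.50 for Brood 1 and 2.11 for Brood 2 against Pollen 1. It was 2.82 for Brood 1 and 2.47 for Brood 2 against Pollen 2. The same quantity was -0.29 between Brood 2 and Brood 1 and -0.32 between Pollen 2 and Pollen 1. Relative to the mean of all 6 libraries it was 1.88 ± 0.26 in Brood and -0.62 ± 0.20 in Pollen (SD, n = 2 each), and -1.21 ± 0.07 in Honey. The difference between Brood and Pollen was thus larger than the spread between replicates, but 2 against 2 libraries cannot give an exact permutation p below 0.33. Measures of RNA integrity were not used here, and their part in the length relation was not tested.

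**Figure D1:**
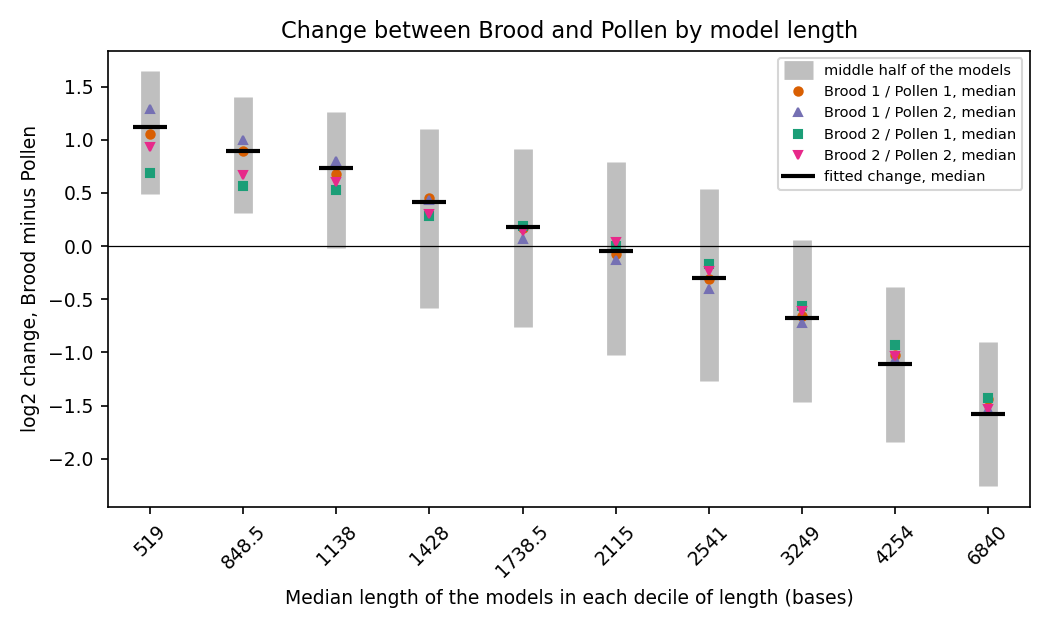
Change between Brood and Pollen by model length. The x axis gives the median length (bases) of each decile of the 6943 tested models and the y axis the log2 change, Brood minus Pollen. Grey bars span the middle 50% of models, black lines are medians of the fitted change, and symbols are medians for each of the 4 pairs of libraries on log2(CPM + 1). The medians fall from 1.12 in the shortest to -1.58 in the longest decile.

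Tested on 1 scale for all models, 3359 of the 6943 models differed between Brood and Pollen, which is 48.4%, with 1553 higher (22.4%) and 1806 lower (26%). A model was called at an adjusted p under 0.05, by edgeR's quasi-likelihood test with Benjamini-Hochberg adjustment over all tested models. Direction went with length: the shortest decile had 344 higher and 25 lower calls, against 2 higher and 507 lower in the longest. When the libraries were scaled by their totals alone, the median model shifted by -0.46 on the log2 scale, and the split became 553 higher and 2253 lower.

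To compare like with like, each library was scaled separately within each decile of length, so that a change is relative to models of similar length. Of the 6943 models, 1931 (27.8%) then differed, 896 higher in Brood (12.9%) and 1035 lower (14.9%). Higher and lower calls were now closer in number at both ends, with 56 higher and 73 lower in the shortest decile and 83 higher and 89 lower in the longest. Called models were most frequent in the seventh decile (2319 to 2847 bases), at 38.4%, and least frequent in the shortest, at 18.6%. The spread of the changes was also widest for models of middle length, with an interquartile range of 1.81 in the seventh decile, 1.14 in the shortest and 1.36 in the longest. Of the 3359 models called on 1 scale, 1498 (44.6%) kept their call and direction, and 431 were called only within deciles. Another 2 models were called lower on 1 scale and higher within deciles. Of the called models, 796 higher (11.5% of those tested) and 974 lower (14%) had an estimate beyond 2-fold, whereas a test against a 2-fold change called 154 higher and 298 lower. An estimate beyond 10-fold was found for 32 higher (0.461%) and 114 lower called models (1.64%), which include models listed at 0 in some libraries. The excess of lower calls was not kept at a minimum count of 50, with 742 higher and 738 lower within deciles and 1268 and 1219 on 1 scale. In the least abundant decile of models 2.88% were called higher and 11.8% lower within length deciles. In the most abundant decile these were 12.2% and 15.8%.

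The scaling within deciles removes the length relation by construction, and the count of calls still depended on single libraries. The count of 1931 fell to 1261 without Pollen 1 and to 1106 without Pollen 2, of which 1155 and 1056 were among the 1931 with the same direction. When the labelled age entered the fit, 10 models were called within deciles, 0 higher and 10 lower, and 19 on 1 scale. No rise described below therefore kept its call within deciles in that fit. Most of the largest falls described below also lost theirs, among them gene10274 and gene5941, whose log2 estimates were then -7.68 and -5.39.

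**Figure D2:**
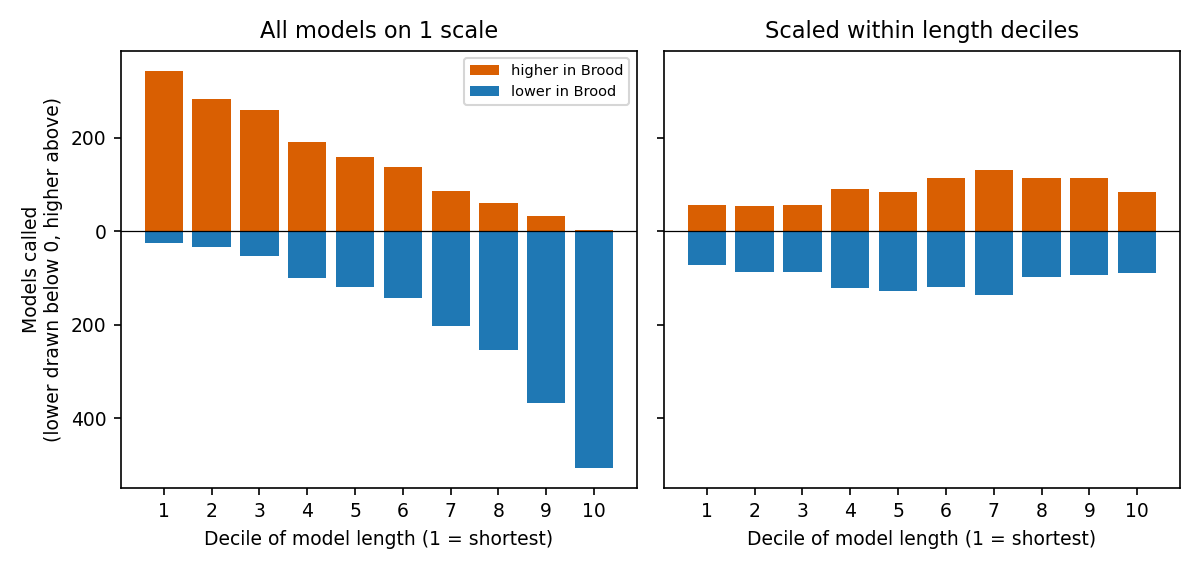
Number of models called higher (above 0) or lower (below 0) in Brood in each decile of model length, at an adjusted p under 0.05 in edgeR. On 1 scale for all models (left) the shortest decile has 344 higher and 25 lower models and the longest 2 higher and 507 lower. Scaled within deciles (right), these are 56 higher and 73 lower, and 83 higher and 89 lower.

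The RNA of the gland was concentrated on fewer models when the queen laid. The leading 4 models made up 50% of the fragments in each Brood library, against 8 and 11 in Pollen 1 and 2, and 90% of the fragments were reached with 458 and 450 models in Brood 1 and 2 and with 763 and 1054 in Pollen 1 and 2. The 10 most abundant models held 66.9% and 69.1% in Brood 1 and 2 and 53.6% and 49.9% in Pollen 1 and 2. The same 10 models led both Brood libraries, 8 models were among the leading 10 of both Pollen libraries, and 5 were shared by all 4. In all, 15 models were among the leading 10 of any of the 4 libraries, and within length deciles 5 of them were called higher in Brood, 4 lower and 6 neither, beside 12.9% higher and 14.9% lower over all models. The 4 lower ones include a model at 2604510 on linkage group 11 that was listed at 0 in both Brood libraries. The 15 were picked for abundance in a Brood or a Pollen library, so the counts are a description.

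The most abundant model of all 4 libraries, 237 bases long and found on linkage group 6 (15407272 to 15408113), had 662925 and 520745 fragments in Pollen 1 and 2 and 868998 and 824768 in Brood 1 and 2. Its level was higher in both Brood libraries. Its log2 change was 1.10 on 1 scale (adjusted p = 0.144, edgeR) and 0.00 within its decile (SE 0.51, adjusted p = 0.994, edgeR). Its change was thus not told apart from that of its decile, which has a median length of 519 bases. A comparison with models nearer to 237 bases was not made. A second short model on the same linkage group, at 8887054 to 8888190 with 288 bases, had 125467 and 58793 fragments in Pollen and 50091 and 44445 in Brood. It was called lower within its decile (log2 change -1.46, SE 0.46, adjusted p = 0.0364, edgeR) but not on 1 scale. The call was lost when any library except Pollen 2 was left out, and it was also lost with 5 length bins and with bins of length and span over length.

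Of the models called higher in Brood, gene8627 on linkage group 11 (2563562 to 2566839, 1635 bases) had the most fragments. It had 75428 and 29141 fragments in the Pollen libraries, 407382 and 619743 in the Brood libraries, and 716 and 235 in the Honey libraries. The groups did not overlap. It was 12.2-fold higher than in Pollen relative to its length decile (log2 change 3.61, SE 0.65, adjusted p = 0.00365, edgeR), with 4.56 on the log2 scale when Pollen 1 was left out and 3.04 when Pollen 2 was. It belongs to a tandem row of models on the plus strand in which 2 more abundant models, at 2610927 and at 2575604, were also higher within their decile. Their log2 changes were 2.19 (SE 0.55) and 1.64 (SE 0.47), and both calls were lost when any 1 of the 4 libraries was left out. Another abundant model of the row, at 2586955, had 108121 and 189922 fragments in Pollen and 88124 and 159508 in Brood and was not called (log2 change 0.09, SE 0.49). A further model, at 2581588, went the other way, from 44838 and 99720 fragments in Pollen to 2366 and 2261 in Brood (log2 change -4.75, SE 0.50, adjusted p = 0.000579, edgeR), with -5.22 when Pollen 1 was left out and -4.14 when Pollen 2 was. A neighbour at 2604510 had 337402 and 347627 fragments in Pollen and was listed at 0 in both Brood libraries, so no fold change is given for it. Sequences of these neighbouring models were not compared, and how fragments matching several of them were counted is unknown.

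An abundant model on an unplaced scaffold, at 35 to 1903 with 1071 bases, rose from 10544 and 9634 fragments in Pollen to 181409 and 204021 in Brood. Its log2 change within its decile was 4.12 (SE 0.48, adjusted p = 0.000793, edgeR). On linkage group 1 a model at 6394567 to 6446905, with a listed length of 2067 bases and a span of 52339 bases, rose from 17848 and 13397 fragments to 43333 and 38579 (log2 change 2.01, SE 0.42, adjusted p = 0.00718, edgeR). This call was lost without Brood 1 and without Pollen 2. The model overlaps another on the opposite strand, and the sources used here do not say whether counting used strand, so their fragments may not be separable.

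Among the models that lost abundance, gene10274 on linkage group 13 (7932097 to 7935133, 1482 bases) was the third most abundant in Pollen 2, at 9.34% of fragments. It had 189777 and 331094 fragments in the Pollen libraries, 4834 and 3957 in the Brood libraries, and 15399 and 18690 in the Honey libraries. Every Pollen library was above every other library. Within its decile it was 51.4-fold lower in Brood (log2 change -5.68, SE 0.62, adjusted p = 0.000579, edgeR), and -5.30 to -6.03 on the log2 scale when single libraries were left out. One model of linkage group 6 (4035400 to 4081096) was listed with 506115 fragments in Pollen 1 and at 0 in Pollen 2, beside 26420 and 5336 in Brood. Without this and 3 other models listed at 0 beside 10000 or more fragments in another library, the 10 most abundant models held 44.3% and 45.3% in Pollen 1 and 2 and 67.4% and 69.2% in Brood 1 and 2.

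**Figure D3:**
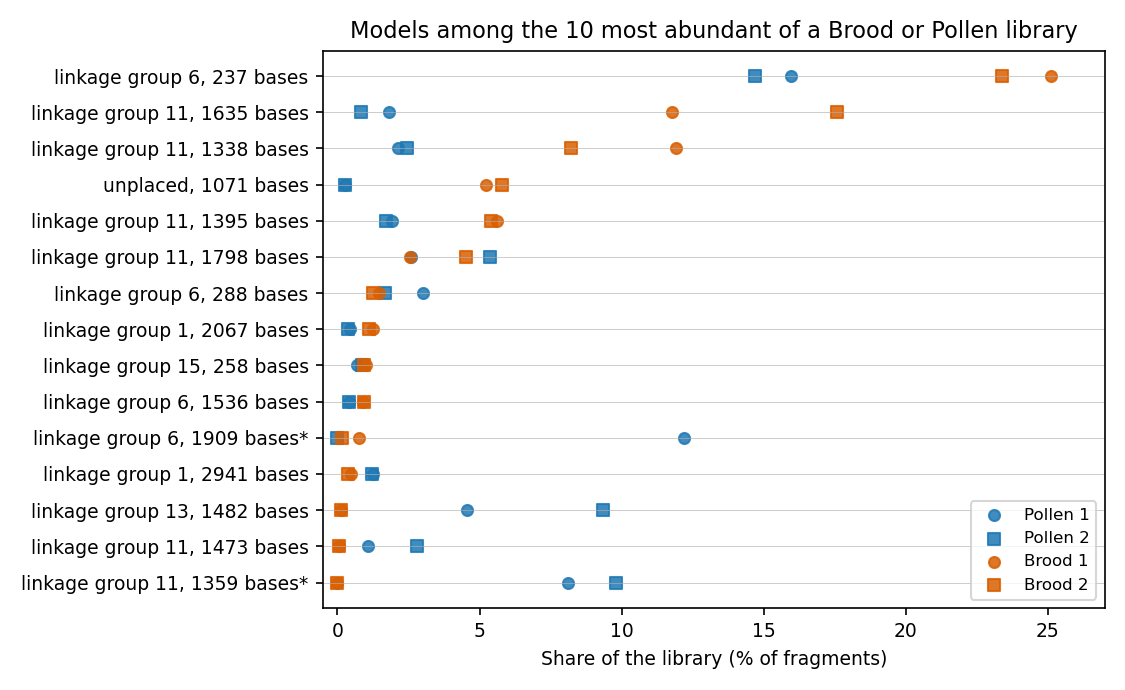
Share of each library (% of fragments, x axis) taken by the 15 models that were among the 10 most abundant of a Brood or Pollen library, ordered by their mean share in Brood. Each row gives the linkage group and the length of the model, and an asterisk marks models listed at 0 in a library beside 10000 or more fragments in another. The 237-base model of linkage group 6 leads in all 4 libraries, with 14.7% in Pollen 2 and 25.1% and 23.4% in the Brood libraries.

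The concentration left fewer fragments for other models, so detection was compared at a matched number of fragments. Thinned to the 3459632 fragments of Brood 1, the expected number of models with a fragment was 8383 and 8670 in Pollen 1 and 2 and 7892 and 8123 in Brood 1 and 2. When the 15 abundant models were removed first and all libraries thinned to 1064913 fragments, the numbers were 8170 and 8407 in Pollen and 7863 and 8119 in Brood. The difference between the group means (Brood minus Pollen) thus went from -519 to -297 models, and the groups did not overlap in either case. In the longest 20% of all listed models, 2076 ± 20.5 of 2141 were detected in Pollen and 1977 ± 26.2 in Brood. In the shortest 20%, 1120 ± 48.8 of 2140 were detected in the Pollen libraries, against 1035 ± 6.29 with brood (SD, n = 2 each).

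A few models passed from clear presence to the floor. A count of 0 allows up to 3 fragments, taken here as the floor. By this floor 16 of the 10704 listed models had 30 or more fragments in both Pollen libraries and 3 or fewer in both Brood libraries, and 2 models had the reverse. The rule uses raw fragments, neither scaled nor matched on length. By library totals the median tested model changed by -0.46 on the log2 scale, and long models were lower, so the 2 directions were not on an equal footing. The 16 had a median length of 3267 bases, against 1907 over all tested models, and all 16 had 30 or more fragments in both Honey libraries. Besides the tandem model listed at 0 above, the one with most fragments lies on linkage group 1 at 11998435 to 12007970. It had 101 and 277 fragments in the Pollen libraries, 1198 and 425 in the Honey libraries, and 3 and 0 in the Brood libraries. Of the 2 with the reverse pattern, one of linkage group 4 (8610087 to 8615841) had 0 fragments in both Pollen libraries, 2 in each Honey library and 121 and 41 in Brood 1 and 2. Taking 3 fragments for each Pollen library, it was at least 41.7-fold higher in the mean of the Brood libraries on the TMM scale, not matched on length, and at least 19.6-fold without Brood 1.

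In each decile of length, the called model with the largest change in each direction is described next, provided both libraries of the higher group had at least 100 fragments. The 10 higher models were 4.13-fold to 129-fold above Pollen relative to their decile, and the 10 lower ones 7.89-fold to 95.1-fold below. On TMM-scaled CPM both Honey libraries lay below both Brood libraries in all 10 of the higher models, and above both in 8 of the 10 lower models. By share of all fragments these counts were 9 and 10. Both counts describe models chosen for a large change.

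The largest rise was that of gene8969 on linkage group 11 (11123138 to 11132857, 3448 bases, eighth decile). It had 47 and 62 fragments in the Pollen libraries and 24 and 11 in the Honey libraries, but 2477 and 3361 in Brood 1 and 2. The Brood libraries stood far above the other 4. The change was 129-fold within its decile (log2 change 7.01, SE 0.38, adjusted p = 1.42e-05, edgeR) and between 6.86 and 7.11 on the log2 scale when single libraries were left out. The median model of its decile changed by -0.68 on 1 scale, and on that scale its own change was 6.33.

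Long models that rose stood out most once compared with models of their own length. On linkage group 15 a model at 4714423 to 4782420, with 5583 bases in the longest decile, had 310 and 282 fragments in Pollen and 908 and 1677 in Brood. Its log2 change was 4.24 within its decile (SE 0.38) against 2.69 on 1 scale. A 3961-base model of linkage group 4 (5838677 to 5849018) had 33 and 21 fragments in Pollen and 121 and 276 in Brood (4.49 within its decile, SE 0.44, and 3.89 to 4.93 without single libraries). It overlaps a model on the opposite strand. A model of 2514 bases at 11134108 to 11147200 on the same linkage group rose from 148 and 75 fragments to 1523 and 1739 (4.75, SE 0.47, and 4.27 to 5.43 without single libraries). In Honey it had 25 and 6 fragments.

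Shorter models with the largest rises included 1 close to the tandem row of linkage group 11. It lies 10858 bases beyond the end of that row, at 2624895 to 2628349, and had 7 fragments in each Pollen library, 3 in each Honey library and 234 and 171 in Brood (log2 change 4.70 within the third decile, SE 0.35, adjusted p = 0.000145, edgeR). On linkage group 1 a model (26266066 to 26269608) counted 61 and 36 fragments in the Pollen, 254 and 230 in the Honey and 737 and 605 in the Brood libraries (3.97 within the fourth decile, SE 0.40). In the sixth decile the largest rise was smaller, at 2.04 (SE 0.40), for a model on an unplaced scaffold at 76771 to 80198, and it was 1.55 without Pollen 2 and 2.71 without Pollen 1.

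The largest fall among models with 1000 or more fragments in each Pollen library was that of gene5941 on linkage group 7 (7421481 to 7427444, 1918 bases, sixth decile). It had 3893 and 4008 fragments in the Pollen libraries and 6832 and 5936 in the Honey libraries, but 42 and 10 in Brood 1 and 2. The Brood libraries lay below all others. The log2 change within its decile was -6.57 (SE 0.67, adjusted p = 0.000527, edgeR), with -8.12 when Brood 1 was left out and -5.81 when Brood 2 was. The model with the largest fall in the fifth decile lies 5536 bases further along on the same strand, at 7432981 to 7438728. It fell from 215 and 384 fragments in Pollen to 18 and 9 in Brood (log2 change -4.07, SE 0.41, and -4.73 without Brood 1), and it had 768 and 421 in Honey.

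Short models that fell did so against a median above 0. In the shortest decile a model of 684 bases on linkage group 2, at 1342145 to 1351022, counted 237 and 167 fragments in Pollen and 28 and 25 in Brood. Its log2 change was -3.44 within its decile (SE 0.28) and -2.34 on 1 scale. A further 1011-base model of linkage group 1 (6180270 to 6183334) had 406 and 178 fragments in Pollen and 25 and 27 in Brood (-3.63 within its decile, SE 0.51, and -2.84 without Pollen 1). With the labelled age in the fit its estimate was 0.13 (1.31 on 1 scale), and it was not called on either scale. Most of the other largest falls also lost their call in that fit. A further 991-base model of linkage group 8 (8378950 to 8381450) had 209 and 462 fragments in Pollen and 41 and 61 in Brood (-2.98, SE 0.46, and -2.29 without Pollen 2).

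In the longest decile the largest fall was that of a model of 8771 bases on linkage group 1, at 28546478 to 28563379. It had 320 and 576 fragments in the Pollen, 197 and 72 in the Honey and 9 and 6 in the Brood libraries. Its log2 change was -5.27 on 1 scale but -3.73 within its decile (SE 0.43, adjusted p = 0.000793, edgeR), and the median model of that decile changed by -1.58. On linkage group 11 a model at 2003984 to 2090629 fell from 145 and 292 fragments to 6 and 9 (-3.56 within its decile, SE 0.52). In the ninth decile a model of linkage group 13 (1836745 to 1850128) counted 125 and 153 fragments in Pollen and 0 and 5 in Brood, and its fitted log2 change of -4.13 was -10.40 without Brood 2 and -3.22 without Brood 1.

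**Figure D4:**
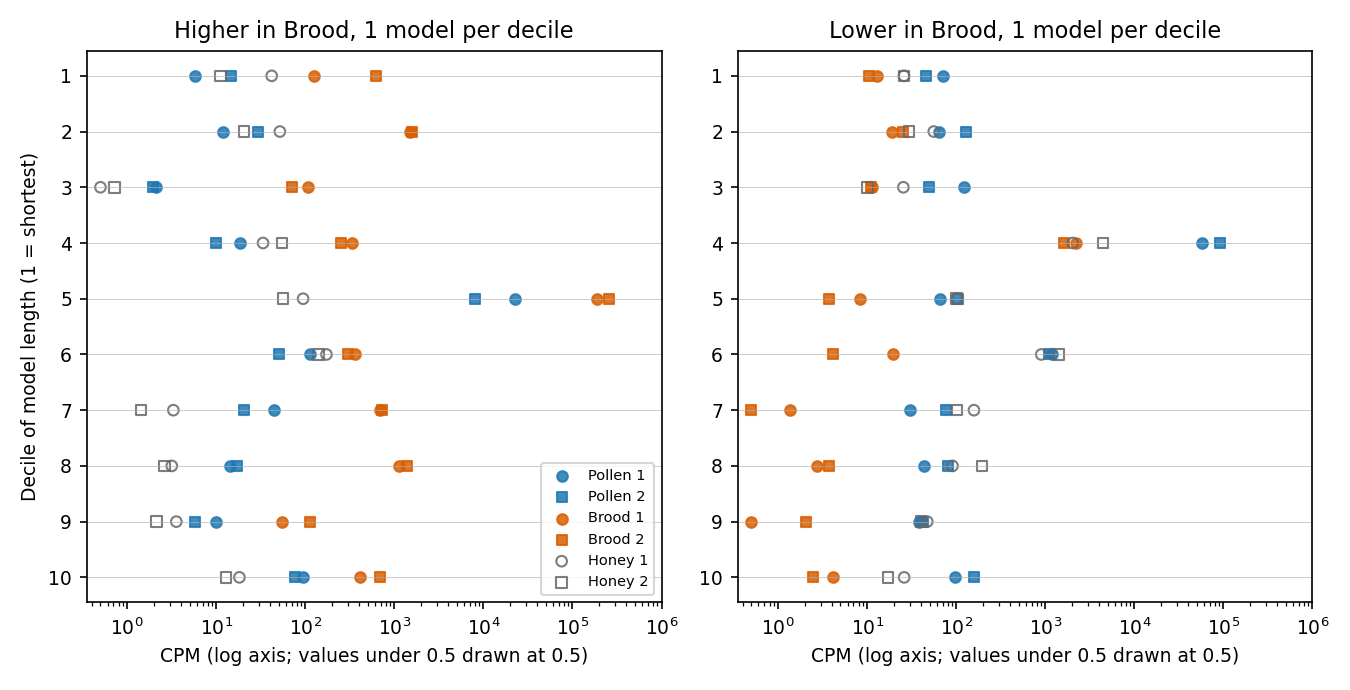
Levels in all 6 libraries of the model with the largest called rise (left) or fall (right) within each decile of model length (y axis). The x axis gives CPM, relative to the TMM-scaled library total, on a log scale. The Brood libraries (orange) lie apart from the Pollen libraries (blue) in all 20 models, which the choice of models fixes, and open symbols show Honey.

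Transcripts from the mitochondrial sequence took a larger share of the Brood libraries. Mitochondrial DNA encodes subunits of the respiratory chain and the organelle's own ribosomal and transfer RNAs. All of its 4 loci in the files were models added by the authors, and together they held 0.365% and 0.237% of fragments in the Pollen libraries, 1.09% and 0.732% in the Brood libraries, and 0.239% and 0.316% in the Honey libraries. Both Brood libraries lay above the other 4, and the Honey values lay within the range of the Pollen values. Within length deciles 3 of the 4 were called higher in Brood and 1 was not, beside 12.9% called higher over all models. These 3 fell in length deciles whose median model was lower in Brood. On 1 scale their log2 changes were smaller, at 1.84, 2.80 and 3.74 in order of position. The changes that follow are within deciles. The locus at 445 to 3470 counted 12044 and 7138 fragments in Pollen and 27017 and 18606 in Brood (log2 change 2.17, SE 0.48, adjusted p = 0.00905, edgeR), which was not called without Brood 1 or without Pollen 2. The locus at 3616 to 6755 went from 2371 and 1023 fragments to 9191 and 6676 (log2 change 3.48, SE 0.54, and 2.94 to 4.30 without single libraries). The locus at 10428 to 15529 went from 107 and 23 fragments to 822 and 339 (4.79, SE 1.22, and 3.89 to 6.40 without single libraries) and was not called by DESeq2 (adjusted p = 0.147) or without Pollen 2. The locus on the minus strand (7319 to 8883) counted 656 and 233 fragments in Pollen and 612 and 178 in Brood (-0.49, SE 0.59, with -1.5 without Brood 1 and 0.44 without Pollen 1).

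A row of 6 neighbouring short models on linkage group 2 rose together. Runs of 4 or more neighbouring tested models with the same call were sought along the genome after the values were known. There were 12, of which 11 were lower and 1 was higher in Brood, beside 14.9% of all tested models called lower and 12.9% higher. Some lower runs hold models added by the authors or models that overlap, so their members may not be separate genes. The run from 12797876 to 12862969 on linkage group 2 holds only added models. In that of linkage group 12, 2 models share the start 9078506. The higher run spans 17377 bases, from 3342875 to 3360251, with 4 models on the plus and 2 on the minus strand and lengths of 585 to 794 bases. In 5 of the 6 the span equals the length, so these are models without introns. The model with the largest change, at 3347160, had 39 and 107 fragments in the Pollen libraries, 393 and 86 in the Honey libraries, and 3297 and 3839 in the Brood libraries (log2 change 5.34 within its decile, SE 0.60, adjusted p = 0.000749, edgeR), with a range of 4.79 to 6.25 when single libraries were left out. Its neighbour at 3351145 had 19 and 53 fragments in Pollen and 270 and 1523 in Brood (4.14), and its call was lost without Brood 2 (2.23, adjusted p = 0.0506, edgeR). The model at 3342875 went from 5 and 10 fragments to 187 and 98 (3.66, and 3.16 to 4.35 without single libraries). The model at 3356222 went from 47 and 111 to 487 and 500 (2.37, and 1.87 to 3.12). The last model, at 3359661, went from 44 and 83 fragments to 355 and 754 (2.61, and 1.82 to 3.27), and the model at 3345340 from 193 and 328 to 987 and 1469 (1.70). The calls of these last 2 were lost without Brood 2 and without Pollen 1, and that of the model at 3359661 also in DESeq2 (adjusted p = 0.0521). In all 6 models both Brood libraries lay above both Pollen libraries. Only at 3351145 did a Honey library exceed a Brood library in raw fragments, with 318 in Honey 1 against 270 in Brood 1. On TMM-scaled CPM these were 41.9 and 124.

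Of the lower runs, the longest had 6 models on linkage group 3, from 3751358 to 4040070, with log2 changes within deciles of -2.60 to -0.97, of which 2 (at 3905046 and at 3911206) overlap each other on the same strand and may share fragments. The model at 3905046 had 106 and 113 fragments in Pollen and 9 and 21 in Brood. On linkage group 13 a run of 4 models from 1836745 to 1995651 had fitted changes of -4.52 to -3.44, with all 4 at 0 fragments in Brood 1. Its 3 models at 1836745, 1844320 and 1860143 overlap in a chain on opposite strands, so they may share fragments. The model at 1860143 had only 5 and 19 fragments in Pollen. Of 2677 non-overlapping pairs of neighbouring tested models on the same strand, both were called in 229, with the same direction in 164 (71.6%). Of 3472 such pairs on opposite strands, both were called in 250, with the same direction in 142 (56.8%). Among all tested models 12.9% were called higher and 14.9% lower, and whether neighbours were called together more often than these shares imply was not tested.

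Beside length, the span of a model on the genome went with its change. Span over length is 1 for a model without introns and rises with the intron sequence it covers, and its median over all tested models was 1.85. Each decile of length was split into quintiles by this ratio. In the highest quintile, with a median ratio of 9.33, 89 of 1390 models (6.40%) were called higher and 362 (26%) lower, and the median change was -0.52, against 12.9% higher and 14.9% lower and a median of -0.01 over all models. In the second quintile 243 of 1390 (17.5%) were called higher and 125 (8.99%) lower, with a median of 0.21. Median lengths of the quintiles were 1907 to 1911 bases, so the quintiles were alike in length.

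The lower median of widely spread models was found in all 10 deciles of length, with medians for the highest quintile from -0.89 to -0.19. The other quintiles had medians from -0.27 to 0.46. In each pairing of libraries the lowest quintile lay above the highest, by 0.69 for Brood 1 against either Pollen library and by 0.48 and 0.47 for Brood 2 against Pollen 1 and 2. The same gap was -0.14 for Brood 2 against Brood 1 and 0.02 for Pollen 2 against Pollen 1. The difference between the lowest and highest quintile was 0.65 over all tested models and 0.34 among those with 100 or more fragments on average.

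**Figure D5:**
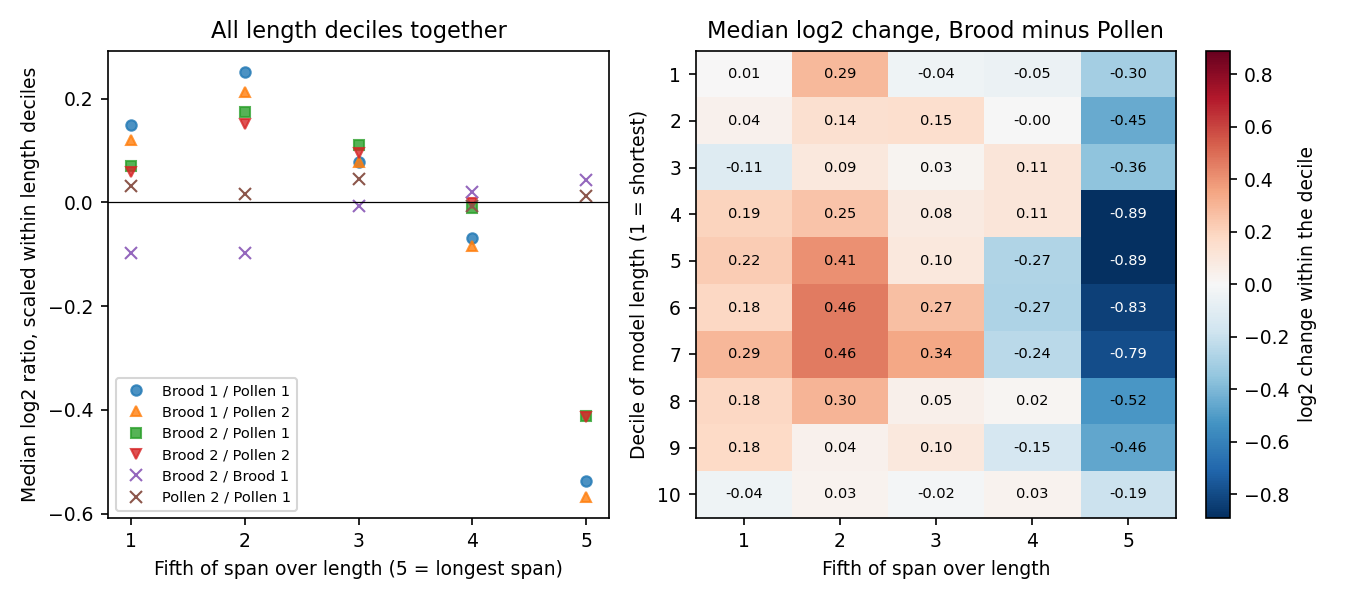
Change between Brood and Pollen by span over length, with models first scaled within deciles of length. Left, median log2 ratio for each pair of libraries (y axis, log2(scaled CPM + 1)) in quintiles of span over length (x axis), with the 2 pairs within groups as crosses. Right, median fitted log2 change in each decile of length and quintile of span over length. The highest quintile is below 0 in all 10 deciles, from -0.89 to -0.19.

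By place in the genome, linkage group 13 had the lowest median, -0.36 within deciles, with 21 of 192 models called higher (10.9%) and 48 lower (25%). Linkage group 3 had 30 of 403 called higher (7.44%) and 70 lower (17.4%), with a median of -0.23. Linkage group 7 had 29 of 318 called higher (9.12%) and 63 lower (19.8%), although its median was -0.04. Linkage groups other than 13 and 3 had medians from -0.12 to 0.13. Models on unplaced scaffolds were shorter (median 1387.5 bases), and their median of 0.52 on 1 scale became 0.10 within deciles.

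Models added by the authors were called lower more often than higher with a laying queen. Outside the mitochondrial sequence, 14 of 289 (4.84%) were called higher within deciles and 101 (34.9%) lower, with a median of -1.08, against 13.2% and 14% of the 6650 numbered models. Their median level was 7.51 CPM, against 13.99 CPM for numbered models. How the authors chose the added models is unknown, and whether that choice depended on levels in these same libraries was not tested. The contrast with numbered models is therefore only a description. Some added models adjoin each other on the same strand, so the 289 may not be separate genes. Models that overlap another on the opposite strand had shares close to those over all models, with 178 of 1380 higher (12.9%) and 208 lower (15.1%).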

How the data were processed

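RNA of hypopharyngeal glands was sequenced in 6 libraries. Per the file headers, the authors deposited for each gene model its position, its length, the raw count of fragments, an FPKM value and a normalized count, with 1 header line repeated inside each file, which was dropped. Among abundant models the median ratio of the deposited normalized count (a signal) to the raw count was 1.02 and 0.949 in Pollen 1 and 2 and 1.60 and 1.44 in Brood 1 and 2. Whether this ratio is constant over models was not tested. How the deposited FPKM values follow from the count and the listed length was not tested either. Aligner, counting tool, annotation and build are not given in the sources used here. Lengths were multiples of 3 for 69.4% of models.

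Raw counts were tested with edgeR 4.0.16 in R 4.3.3 (glmQLFit, glmQLFTest, two-sided, filterByExpr with a minimum count of 10, TMM scaling, Benjamini-Hochberg over 6943 models). The fit took in all 6 libraries, estimated 3 group means and left 3 residual degrees of freedom. Within length bins, models were divided into 10 bins of equal number, TMM was computed inside each, and the result entered the same test as offsets. The SE is the log2 change divided by the square root of the quasi-likelihood F. P-values measure the spread between these libraries. Averaged over models, replicates differed by 117 (Pollen) and 29.8 (Brood) times the sampling variance, so they are not duplicates. Such a mean can rest largely on a few models and does not describe the typical model. The Pollen value includes the model listed with 506115 fragments in Pollen 1 and 0 in Pollen 2. CPM uses TMM-scaled totals, and 3 fragments correspond to 0.722 to 0.867 CPM of the raw total in the 4 libraries. Alternatives used DESeq2 1.42.0 and limma 3.58.1.

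Models are named by ID for the called model with most fragments, and for the largest change within its bin among those where both libraries of the higher group had at least 1000 fragments. In each bin and direction, the largest change with 100 or more fragments is given by position. Groups had to be free of overlap, and models added by the authors or listed at 0 beside 10000 or more fragments were left out. The abundant, neighbouring and mitochondrial models were chosen after their values were seen. Members, lists and rules were all chosen with earlier results of these data known.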

Additional observations from a re-analysis of the deposited data

How the results depend on the processing

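The number of models called on 1 scale (3359) became 19 with the labelled age as a covariate and 1163 against a 2-fold change, and leaving out single libraries gave 2356 to 3043. Within length deciles 1931 became 10 with age, 452 against a 2-fold change, and 1106 to 1372 without single libraries, where a lone library was assumed to vary like the other groups. The age term rests on days that differ by 1 within each group, and the 2-fold test asks for more. In all other settings both counts stayed within 1.5 times, and the bins tried gave 1878 (20 bins), 1998 (5 bins), 1900 (smooth trend), 2044 (length and abundance) and 1882 (length and span over length). With DESeq2 1583 were called, 1529 of them shared. Upper quartile factors gave 1879 higher and 1608 lower on 1 scale, and limma on log2(FPKM + 1) 1621 higher and 1426 lower. With the replicate number as a block 3313 and 1830 models were called, and of the models described 2 lost their call within deciles, those at 8887054 and 2575604. Same-numbered deviations correlated at 0.167 between Brood and Pollen, and 0.143 within deciles. Since the labels put 1 day between the numbers in every group, the replicate number and the age carry the same information within groups.

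The median of the shortest minus that of the longest decile (2.70) was 2.10 without the filter, 1.91 on log2(FPKM + 1), and 2.51 to 2.87 without single libraries. The gap by span over length (0.65) was 0.49 at a minimum count of 50, 0.34 at 100 or more fragments, 1.37 with age, 0.91 with library totals and no matching on length, and 0.60 to 0.73 without single libraries. The share of the 10 most abundant models was 16.3 percentage points higher in Brood, 23.5 without models listed at 0, and 14.4 to 18.1 without single libraries. The gap in models detected at a matched number of fragments (-519) was -84.2 in the shortest 20% and -99.1 in the longest 20% of models, which hold fewer models, and -662 to -376 without single libraries. Of the values for single models, 1204 kept their direction and side of the threshold, 99 lost it (62 with age) and 13 passed it. The estimate for the model on linkage group 1 at 6180270 changed sign with age, to 1.31 on 1 scale (adjusted p = 0.596, edgeR) and 0.13 within its decile (adjusted p = 0.983, edgeR). Neither value can be told from 0. Other causes were not tested. The alternatives without added models, without models listed at 0 and by span over length were chosen after seeing the data.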
